A study of Homo sapiens with 4 samples.

Results

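Transcript levels on the array of HuCCT1 cells given VPA together with GEM (GEM_VPA) were compared with those on the array of cells given GEM alone. The comparison took 2 of the 4 arrays of the series, chosen by their titles, with 1 array on each side. HuCCT1 is a human cholangiocarcinoma line, that is, a line grown from a cancer of the bile ducts. The other 2 arrays held cells given VPA alone and untreated cells, and all 4 conditions were of the same line. The labels write only GEM and VPA, which are taken to mean gemcitabine and valproic acid as is usual for cancer cells. No dose, exposure time or order of addition is given in the sources used here. With no replicate, each difference is a size on the log2 scale with no error and no test, and the number of arrays limits its precision.

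Gemcitabine is a cytidine analogue that cells phosphorylate and build into DNA, where it stops chain extension. Its diphosphate also blocks ribonucleotide reductase, the enzyme that makes deoxynucleotides, so the drug acts on cells in S phase. Valproic acid inhibits histone deacetylases, the enzymes that remove acetyl groups from histone tails. When replication stalls, ATR and CHK1 hold the cycle and p53 can switch on CDKN1A, whose product p21 keeps RB-family proteins and the DREAM complex on the promoters of replication and mitosis genes.

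Values were log2 intensities for 18377 genes. The array medians were 7.87 (GEM_VPA), 7.91 (GEM), 7.92 (VPA) and 7.87 (untreated). The arrays stood apart in a way that bears on every value below. Over 28869 rows the GEM_VPA array correlated with the untreated array at 0.9962, and the GEM array with the VPA array at 0.9955. The pair compared here was the least alike of all 6 pairs, at 0.9838. The spread of the genes' log2 differences, as a robust SD, was 0.270 for GEM_VPA minus GEM and 0.147 for GEM_VPA minus untreated. The labels were followed as given, and whether they match the arrays was not tested. The median difference over all genes was -0.02.

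A gene was counted as different when its levels were at least 2-fold apart, a log2 difference of 1 in either direction, and the higher level was at or above the median of its array. In the GEM_VPA array 419 genes were higher than in the GEM array (2.28% of all genes) and 207 were lower (1.13%), 626 in all (3.41%). The gene that passed with the smallest difference was ZNFX1 at -1.0001, followed by MIS12 at 1.0002 and HNRNPR at 1.0005. C1RL at -0.9997, SENP1 at 0.9987 and SNRPD1 at 0.9975 lay just outside. Of the genes named here and recomputed under other settings, MIS12, GINS3, TIPIN, FOXM1, CCNA2, CCNB1, FBXO5, NUP37, NUP107, SRSF4 and HNRNPR came under the limit when the columns were quantile normalized again, and KRT23, ELF3 and DTX3L when each array was centred on its median. ZNFX1, APOBEC3B and LTBP1, which also lay close to the limit, were not among the genes recomputed. The 5 largest increases were in DLEU2, PRKAR2B, H3C12, ENPP1 and H2BC14, and the 5 largest decreases in KRTAP3-1, LCN2, ARRDC4, CEACAM1 and TP53INP1.

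**Figure D1:**
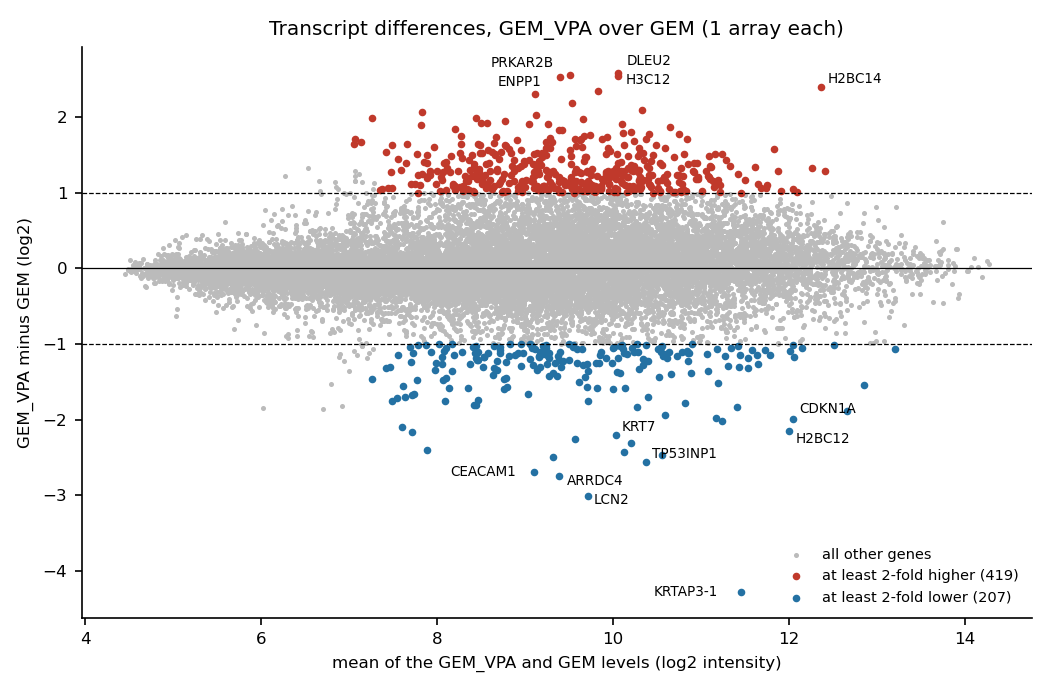
The log2 difference of each gene, GEM_VPA minus GEM, is plotted against the mean of its 2 levels (log2 intensity), with 1 point per gene and dashed lines at the 2-fold limits. The 419 genes that were higher are red and the 207 that were lower are blue, and KRTAP3-1 lies apart from all others at -4.27.

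DLEU2, a long non-coding RNA of chromosome 13, had the largest increase. Its level was 11.35 on GEM_VPA and 8.77 on GEM, with 9.60 on VPA and 11.08 on untreated, a difference of 2.58 or 5.99-fold. The levels were high on GEM_VPA and untreated and low on GEM and VPA. PRKAR2B, which restrains protein kinase A as its regulatory subunit, was at 10.79 on GEM_VPA and 8.23 on GEM, with 9.39 on VPA and 10.00 on untreated (2.56). ENPP1, a pyrophosphatase of the cell surface, was at 10.66 on GEM_VPA and 8.14 on GEM, with 9.44 on VPA and 9.74 on untreated (2.52). For ENPP1 the VPA and untreated levels lay close together, between those of the other arrays. SLC7A11, the cystine and glutamate exchanger, was at 11.01 on GEM_VPA and 8.66 on GEM, with 8.64 on VPA and 10.93 on untreated (2.35), and here VPA was as low as GEM.

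Other genes among the 30 largest increases included LRRCC1, a centrosomal protein (2.30), CHN1, a Rac GTPase-activating protein (2.06), CALB2, the calcium-binding protein calretinin (1.99), SLC7A2, a transporter of cationic amino acids (1.94), CPM, a membrane carboxypeptidase (1.92), FZD3, a Wnt receptor (1.91), and PARPBP, a regulator of homologous recombination (1.92). SGCE, epsilon-sarcoglycan, was at 1.97, SSBP2 at 1.91, SPA17 at 1.90, VEPH1 at 1.90 and FRRS1 at 1.76. ANKRD22 was also among them at 1.99, but its GEM level was under the 25th percentile of that array, where values are compressed and the size may be understated.

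KRTAP3-1, a keratin-associated protein of hair, had the largest difference in either direction. Its level was 9.32 on GEM_VPA and 13.59 on GEM, with 13.60 on VPA and 9.12 on untreated, 19.4-fold lower on GEM_VPA than on GEM (-4.27). Its 2 rows gave -4.2749 and -4.2741. The values fell into a high pair (GEM and VPA) and a low pair (GEM_VPA and untreated).

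LCN2, the siderophore-binding lipocalin, was at 8.21 on GEM_VPA and 11.22 on GEM, with 9.86 on VPA and 8.81 on untreated (-3.01). ARRDC4, an alpha-arrestin that restrains glucose uptake, was at 8.01 on GEM_VPA and 10.75 on GEM, with 10.29 on VPA and 7.97 on untreated (-2.75). CEACAM1, an adhesion molecule of epithelia, was at 7.75 on GEM_VPA and 10.45 on GEM, with 9.90 on VPA and 7.86 on untreated (-2.70). In these 3 genes GEM was the highest array and VPA the next.

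Other genes among the 30 largest decreases were of varied kinds. PTAFR, the receptor of platelet-activating factor, was at -2.50, FXYD3, a regulator of the sodium pump, at -2.47, TLR3, a sensor of double-stranded RNA, at -2.25, CLTRN, collectrin, at -2.17, RASGRP3, a Ras activator, at -2.10, and GALNT5, which starts O-glycosylation, at -2.02. SUSD2 was at -1.94, TSPAN1, a tetraspanin, at -1.78, MR1, which presents vitamin B metabolites to T cells, at -1.76, and TCN1, a vitamin B12 binder, at -1.75. BCL2L15, DNAI3, ACTBL2, LOC151760 and MTND2P28, which is annotated as a pseudogene of a mitochondrial gene, lay between -1.73 and -1.83. ACTBL2 and MTND2P28 have near-identical relatives, so their own levels are uncertain.

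**Figure D2:**
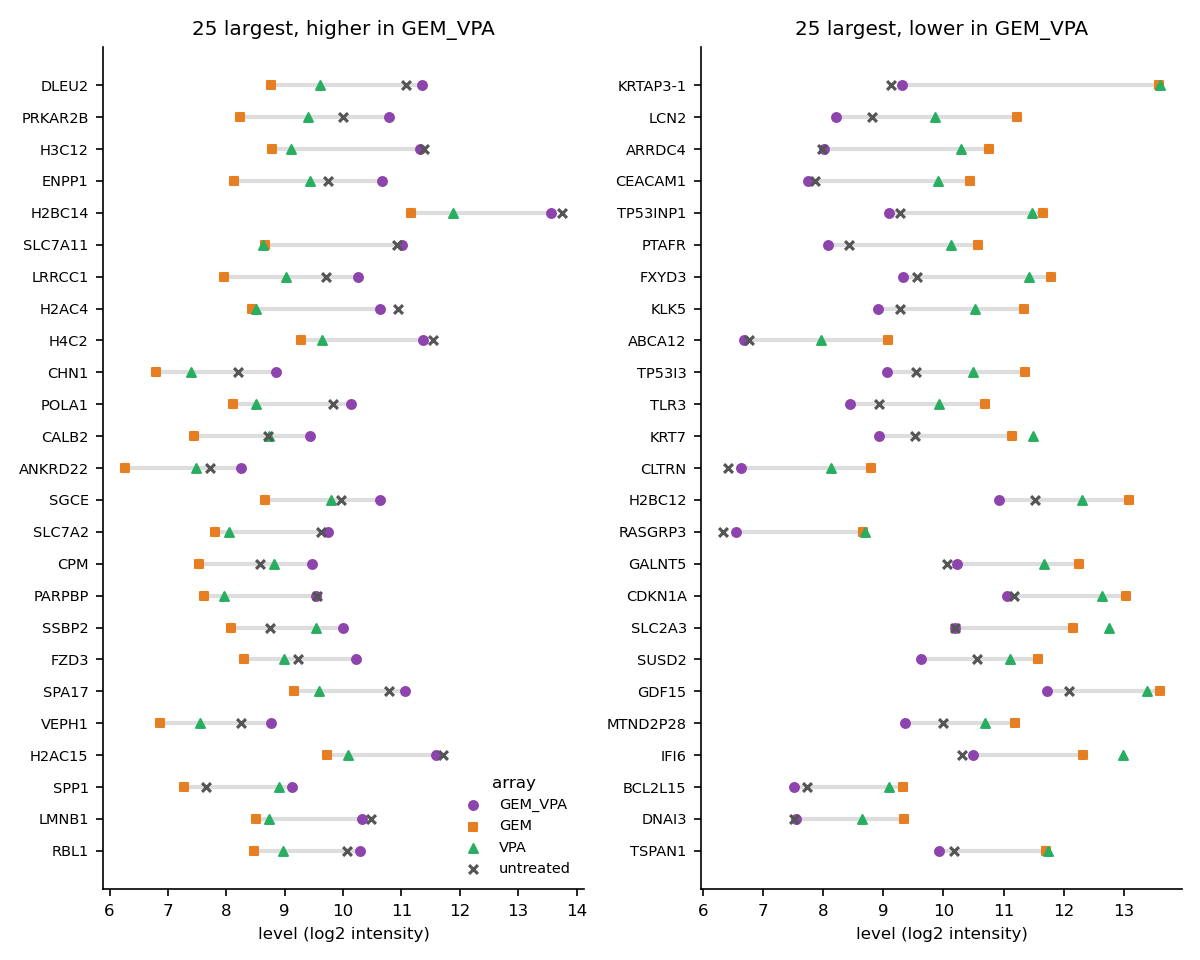
Levels (log2 intensity) of the 25 largest increases and the 25 largest decreases, with 1 mark for each array (GEM_VPA, GEM, VPA and untreated). A grey bar runs from the GEM_VPA level to the GEM level of each gene. For KRTAP3-1 the GEM_VPA and GEM marks lie at 9.32 and 13.59, and the VPA and untreated marks at 13.60 and 9.12.

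DLEU2 is the host transcript of MIR15A and MIR16-1. SMC4, a condensin subunit that was also higher (1.77), hosts the related pair MIR15B and MIR16-2, and the helicase gene MCM7 (1.33) hosts MIR106B, MIR93 and MIR25. Hosts were sought by position and strand among the 626 genes past the limit only, and 26 of these had a microRNA gene inside them. The share over all genes was not computed, so this count has no background beside it. For MCM7 the search listed MIR106B and MIR25 but not MIR93, whose mature sequence lies between theirs on the same strand. The mature sequences of these 3 host genes, from RefSeq (GRCh38.p14), are given because the hosts were among the higher genes and their microRNAs fall into shared seed families. Bases 2 to 8, the seed that pairs with target RNAs, are in capitals.
hsa-miR-15a-5p: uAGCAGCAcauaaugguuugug
hsa-miR-16-5p: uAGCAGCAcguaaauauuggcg
hsa-miR-15b-5p: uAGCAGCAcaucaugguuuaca
hsa-miR-106b-5p: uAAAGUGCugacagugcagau
hsa-miR-93-5p: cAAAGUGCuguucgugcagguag
hsa-miR-25-3p: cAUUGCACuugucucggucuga
The first 3 share the seed AGCAGCA, hsa-miR-106b-5p and hsa-miR-93-5p share AAAGUGC, and hsa-miR-25-3p has another. The mature hsa-miR-15a-5p lies at chr13:50049167-50049188 on the minus strand, and hsa-miR-15b-5p at chr3:160404607-160404628 on the plus strand.

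The rows named for the microRNA genes themselves were chosen after their values were seen. The MIR15A row was at 8.30 on GEM_VPA and 7.19 on GEM, with 7.75 on VPA and 8.59 on untreated (1.11) and was the 1 microRNA row that passed the 2-fold rule upward. MIR25 was at 0.03. The rows of MIR106B (-0.16) and MIR93 (-0.04) lay under the array medians and could not pass the rule. Those of MIR16-1 (0.01), MIR15B (-0.02) and MIR16-2 (-0.09) had GEM levels of 4.92, 5.34 and 5.14, under the 25th percentile of that array, where values are compressed, so whether they differed cannot be read from them. These arrays were labelled from whole transcripts, and what such a row measures, the precursor or the host's intron, was not tested. Of 10 measured genes in the list of non-coding host RNAs DLEU2 was higher and 2 were lower, RPPH1, the RNA of ribonuclease P (-1.39), and MIR31HG (-1.25). MIR17HG was at 0.87, under the limit.

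Genes that license replication origins and unwind DNA were higher on the GEM_VPA array. Of 27 measured genes 16 were at least 2-fold higher and 0 lower, against 2.28% and 1.13% of all genes, and all 27 were above 0. The median difference was 1.20, beside -0.02 over all genes. MCM6, one of the 6 ring subunits of the replicative helicase, was at 11.30 on GEM_VPA and 9.52 on GEM, with 10.05 on VPA and 11.37 on untreated (1.77). The other ring subunits were MCM5 (1.42), MCM3 (1.34), MCM7 (1.33), MCM2 (1.30) and MCM4 (1.12), so every member of the ring passed the limit. ORC1, the ATPase of the origin recognition complex, was at 1.60, MCM10 at 1.5, CDC7, the kinase that fires origins, at 1.45, CDC45, the helicase cofactor, at 1.29, and GMNN, geminin, the inhibitor of licensing, at 1.28. The GINS subunits GINS2 (1.28), GINS4 (1.20) and GINS3 (1.02) also passed. ORC4, an origin recognition subunit, had the smallest difference at 0.31.

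Of 35 measured polymerase and replication fork genes 16 were higher and 0 lower, with 34 above 0 and a median of 0.95. POLA1, the catalytic subunit of polymerase alpha that primes new strands, was at 10.14 on GEM_VPA and 8.12 on GEM, with 8.52 on VPA and 9.84 on untreated (2.02). Its level was lowest on the GEM array and next lowest on the VPA array. POLE2 of polymerase epsilon was at 1.80, PRIM1, the primase, at 1.59, POLD3 of polymerase delta at 1.53, and POLQ, the polymerase of end joining by short homology, at 1.52. The clamp loader subunits RFC4 (1.48), RFC3 (1.43) and RFC5 (1.39), the flap nuclease FEN1 (1.11) and the fork protection pair TIMELESS (1.17) and TIPIN (1.03) followed. The 1 member below 0 was POLD4, a small subunit of polymerase delta, at -0.97.

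The start regions of MCM6 and POLE2 are printed because they hold the E2F motif, which 12 of 24 origin licensing promoters and 9 of 30 polymerase and fork promoters held, against 3.33% of all promoters and 5.47% of those of genes that reached the level filter. Each is the RefSeq (GRCh38.p14) sequence from 250 bases before to 50 after the start, 5′ to 3′ on the strand of the gene, with matches to TTTCCCGC, TTTCGCGC, TTTGCCGC or TTTGGCGC on either strand in capitals. MCM6 lies on the minus strand at chr2:135876394-135876693 and has 4 matches that overlap in pairs. POLE2 lies on the minus strand at chr14:49688165-49688464 and has 1 match.
MCM6: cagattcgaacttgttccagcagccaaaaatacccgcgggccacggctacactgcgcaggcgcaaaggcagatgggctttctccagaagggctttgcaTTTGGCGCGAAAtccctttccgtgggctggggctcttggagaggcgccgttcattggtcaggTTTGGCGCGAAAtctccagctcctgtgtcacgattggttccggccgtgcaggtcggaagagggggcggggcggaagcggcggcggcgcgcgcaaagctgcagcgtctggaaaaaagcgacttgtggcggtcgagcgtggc
POLE2: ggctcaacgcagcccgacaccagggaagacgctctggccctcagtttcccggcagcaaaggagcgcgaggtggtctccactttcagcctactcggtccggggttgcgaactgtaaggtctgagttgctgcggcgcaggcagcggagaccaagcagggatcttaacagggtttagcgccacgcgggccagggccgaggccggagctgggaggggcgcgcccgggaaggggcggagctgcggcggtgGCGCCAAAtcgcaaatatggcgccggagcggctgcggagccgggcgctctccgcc

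Genes that supply nucleotides differed less. Of 23 measured, 2 were higher and 0 lower, with 22 above 0 and a median of 0.48. TYMS, thymidylate synthase, was at 1.05, and DUT, which clears dUTP, at 1.38. RRM1 and RRM2, the large and small subunits of ribonucleotide reductase and targets of gemcitabine, were at 0.78 and 0.63, both under the 2-fold limit. RRM2B, the subunit that p53 controls, was at -0.76.

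Genes for the uptake, activation and breakdown of gemcitabine gave 1 gene past the limit. Of 16 measured, 1 was lower and 0 higher, and the median was -0.03. The lower gene was CDA, cytidine deaminase, which inactivates the drug, at 10.79 on GEM_VPA and 12.09 on GEM, with 12.17 on VPA and 10.81 on untreated (-1.30). DCK, the activating kinase, was at 0.90, just under the limit in the other direction. SLC29A1, the main nucleoside importer, was at 0.27.

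**Figure D3:**
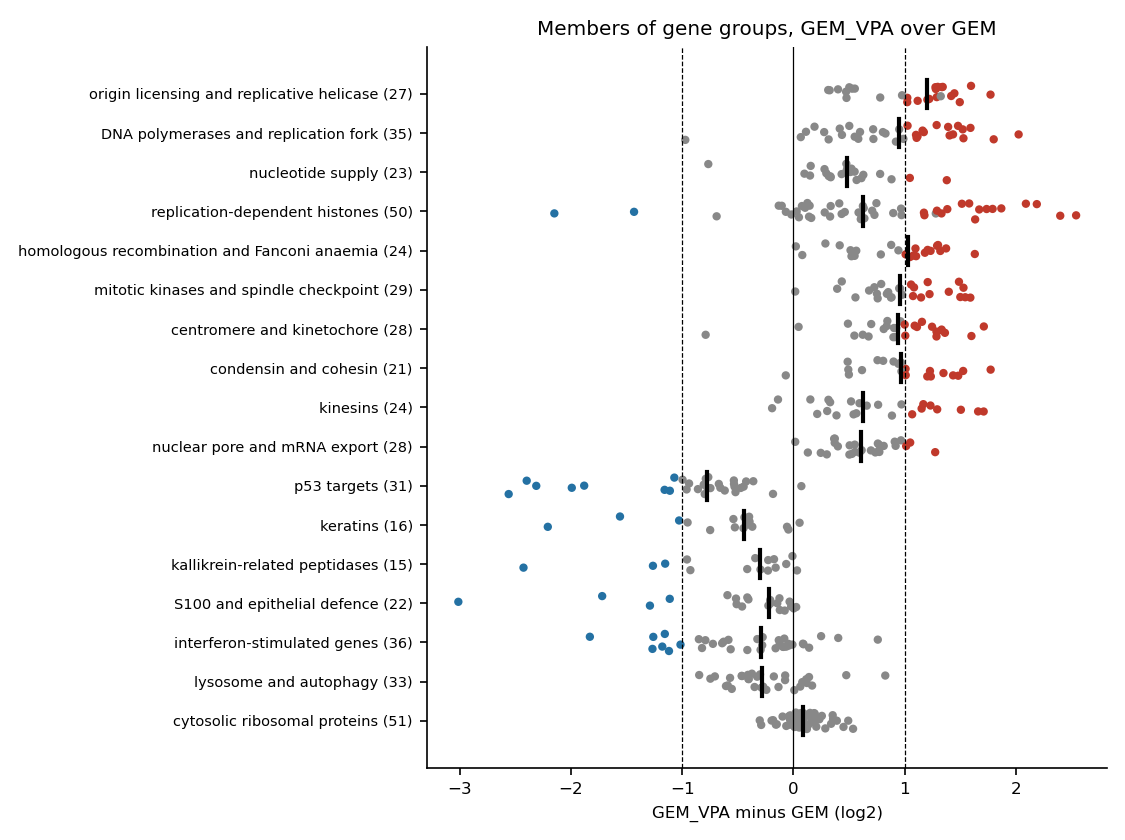
Each point is the log2 difference of 1 gene, GEM_VPA minus GEM, in 17 gene groups with the number of measured genes in brackets, black bars at the group medians and dashed lines at the 2-fold limits. Replication and mitosis groups lie to the right of 0 (median 1.20 for origin licensing), p53 targets to the left (-0.77), and ribosomal proteins close to 0 (0.09).

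Histone genes of the replication-dependent clusters, which cells transcribe in S phase, were higher with 2 exceptions among the genes past the limit. Of 50 measured genes 16 were higher and 2 lower, with 43 above 0 and a median of 0.63. Only 32 of the 50 reached the level filter. H3C12 was at 11.32 on GEM_VPA and 8.78 on GEM, with 9.10 on VPA and 11.39 on untreated (2.54), and H2BC14 at 13.56 on GEM_VPA and 11.17 on GEM, with 11.89 on VPA and 13.75 on untreated (2.40). In both the GEM_VPA and untreated levels were high and the GEM level was the lowest. H2AC4 (2.19), H4C2 (2.09), H2AC15 (1.87), H4C4 (1.79), H3C1 (1.74) and the linker histone H1-2 (1.63) followed. H2BC13 was at 1.67, with its GEM level below the 25th percentile.

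Both lower genes of the list code for H2B. H2BC12 was at 10.93 on GEM_VPA and 13.08 on GEM, with 12.31 on VPA and 11.52 on untreated (-2.15), high on GEM and VPA, while H2BC21 was at 8.97 on GEM_VPA and 10.40 on GEM, with 9.19 on VPA and 9.21 on untreated (-1.43), high on GEM only. Both genes are known to give polyadenylated transcripts outside S phase, unlike most of the cluster. Histone genes are near-identical in sequence and can share probes, so the values of single genes are uncertain. Rows shared by several histone genes are outside these counts, and only those past the limit were listed. Of them the row of H3C6 and H3C11 was lower, at 6.77 on GEM_VPA and 8.23 on GEM, with 7.60 on VPA and 6.91 on untreated (-1.45). Rows shared by H3C4 and H2AC7 (1.63), H3C10 and H2AC13 (1.39), H4C11 and H4C12 (1.28) and H3C13, H3C14 and H3C15 (1.11) were higher. Among replacement histones and chaperones 2 of 15 were higher and 0 lower, H2AZ2 (1.21), a histone variant, and NASP (1.27), a histone chaperone.

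The start region of H2BC14 (chr6:27814772-27815071, plus strand, RefSeq GRCh38.p14) is printed as an example of the histone promoters, 41 of 45 of which held CCAAT. Of all promoters 35.7% held it, and 36.3% of those of genes that reached the level filter. Capitals mark 5 matches to CCAAT and 1 to the E2F letters given above, on either strand.
H2BC14: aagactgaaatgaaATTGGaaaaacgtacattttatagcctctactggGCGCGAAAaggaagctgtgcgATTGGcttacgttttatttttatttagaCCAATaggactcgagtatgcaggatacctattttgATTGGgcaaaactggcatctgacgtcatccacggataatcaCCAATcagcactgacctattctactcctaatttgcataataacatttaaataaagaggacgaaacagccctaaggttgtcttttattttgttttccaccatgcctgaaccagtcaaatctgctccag

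**Figure D4:**
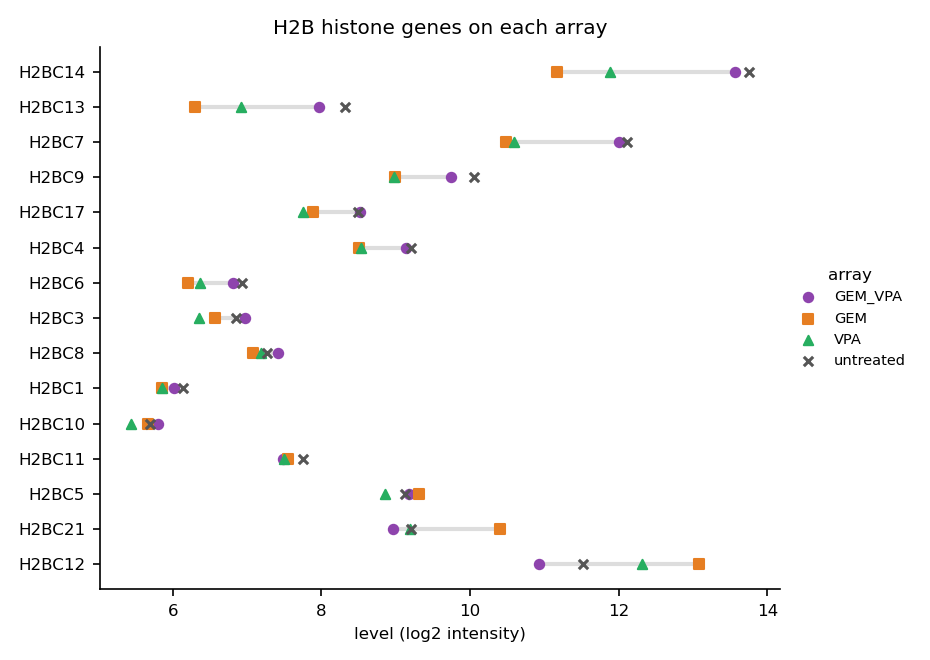
Levels (log2 intensity) of the measured H2B genes on each array, ordered by the difference between GEM_VPA and GEM. A grey bar runs from the GEM_VPA level to the GEM level of each gene. H2BC14 at the top was 2.40 higher on GEM_VPA than on GEM, and H2BC12 at the bottom was 2.15 lower.

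In each listed group of mitosis genes some members were higher and 0 lower. All 29 measured mitotic kinase and spindle checkpoint genes were above 0, 12 were at least 2-fold higher and 0 lower, and the median was 0.96. SGO1 (1.59) and SGO2 (1.54), the shugoshins that guard centromeric cohesion, TTK (1.53), BUB1B (1.40), BUB1 (1.15) and MAD2L1 (1.22) of the spindle checkpoint, ASPM (1.5), a spindle pole protein, and PLK4 (1.49), the kinase of centriole duplication, were among them. TTK was at 11.11 on GEM_VPA and 9.58 on GEM, with 9.92 on VPA and 10.99 on untreated. The median levels of the 29 genes were 11.11 on GEM_VPA, 10.19 on GEM, 10.29 on VPA and 11.24 on untreated.

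Of 28 centromere and kinetochore genes 13 were higher and 0 lower (median 0.94). NUF2 (1.71), SPC25 (1.29) and KNL1 (1.36) of the outer kinetochore, which binds microtubules, and CENPH (1.60), CENPI (1.25) and CENPF (1.33) passed the limit. CENPT, a member that bridges DNA to the outer kinetochore, was at -0.79. Of 21 condensin and cohesin genes 10 were higher and 0 lower (median 0.97), with the condensin core pair SMC4 (1.77) and SMC2 (1.43) and the cohesin core pair SMC3 (1.35) and SMC1A (1.23). Of 24 kinesins 8 were higher and 0 lower (median 0.63), led by KIF14 (1.71), a kinesin of cytokinesis, KIF15 (1.66) and KIF11 (1.5), the motors that push spindle poles apart.

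Cyclins and their kinases differed by less. Of 21 measured, 4 were higher and 0 lower (median 0.56). CCNB2 was at 1.24, CDC25C, the phosphatase that starts mitosis, at 1.13, CCNA2 at 1.02 and CCNB1 at 1.01. The last 2 lay at 0.97 and 0.92, under the limit, when the columns were quantile normalized again. CCND1, cyclin D1, was at -0.17 and CDK6 at -0.25.

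The start region of CCNB2 (chr15:59104896-59105195, plus strand, RefSeq GRCh38.p14) is printed as an example of a mitotic promoter. It holds 1 match to the cell cycle homology letters TTTGAA and 4 to CCAAT, in capitals. In the mitotic kinase and checkpoint group 14 of 23 promoters held TTTGAA, and among kinesins 10 of 23. These letters were in 15.4% of all promoters and 9.18% of those of genes that reached the level filter.
CCNB2: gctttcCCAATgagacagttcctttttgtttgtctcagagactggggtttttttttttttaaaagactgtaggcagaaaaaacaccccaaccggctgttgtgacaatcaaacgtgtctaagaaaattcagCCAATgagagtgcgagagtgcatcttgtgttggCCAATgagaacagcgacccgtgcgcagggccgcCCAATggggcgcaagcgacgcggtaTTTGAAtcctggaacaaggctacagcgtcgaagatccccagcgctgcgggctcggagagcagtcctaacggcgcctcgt

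Among regulators of these programs, RBL1, the RB-family protein p107, was at 10.30 on GEM_VPA and 8.47 on GEM, with 8.97 on VPA and 10.07 on untreated (1.83). E2F8, a repressor E2F, was at 1.13 and FOXM1, the activator of mitotic genes, at 1.02 (0.94 with the columns quantile normalized again). They were the 3 of 20 measured E2F, DREAM and MMB regulators past the limit, with 0 lower and a median of 0.45. MYC was at -0.12. FBXO5, the inhibitor of the anaphase-promoting complex, was the 1 of 25 cell cycle ubiquitin ligase genes past the limit (1.07).

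Homologous recombination and Fanconi anaemia genes, which repair stalled and broken forks, were all above 0. Of 24 measured 13 were at least 2-fold higher and 0 lower, and the median was 1.03. FANCI, which is ubiquitinated at crosslinks, was at 11.30 on GEM_VPA and 9.67 on GEM, with 10.21 on VPA and 11.22 on untreated (1.63). XRCC2 (1.37), a recombination factor, EXO1 (1.32), the nuclease that resects ends, BARD1 (1.30), FANCC (1.29), FANCM (1.23), a translocase, and the helicases BLM (1.21) and BRIP1 (1.18) followed. Of 14 checkpoint genes 4 were higher and 0 lower (median 0.58). They were CLSPN, claspin (1.37), TOPBP1, the activator of ATR (1.22), and the kinases CHEK1 (1.18) and CHEK2 (1.08). Of 6 mismatch repair genes MSH6 (1.42) and EXO1, which both lists hold, were higher.

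Of 14 measured nuclear lamina and envelope genes 4 were higher and 0 lower, with a median of 0.40. LMNB1, lamin B1, was at 10.33 on GEM_VPA and 8.51 on GEM, with 8.72 on VPA and 10.48 on untreated (1.83), LBR, the lamin B receptor, at 1.29, TMPO, lamina-associated polypeptide 2, at 1.5, and SYNE2, nesprin-2, at 1.15. LMNA, lamin A and C, was lowest in the group at -0.11. All 28 measured nuclear pore and mRNA export genes were above 0, with a median of 0.60, but only 3 passed the limit, THOC6 (1.27), NUP37 (1.05) and NUP107 (1.01). Splicing factors were similar, with 26 of 28 above 0, a median of 0.54 and 2 past the limit, SRSF4 (1.08) and HNRNPR (1.00).

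Of 31 measured p53 target genes 30 were below 0, 8 were at least 2-fold lower and 0 higher, and the median was -0.77. Over all genes 9693 of 18377 were below 0, 1.13% were lower and 2.28% higher. CDKN1A, which encodes p21, was at 11.05 on GEM_VPA and 13.04 on GEM, with 12.63 on VPA and 11.17 on untreated (-1.99, or 3.98-fold lower). TP53INP1, a stress protein of apoptosis and autophagy, was at 9.10 on GEM_VPA and 11.66 on GEM, with 11.48 on VPA and 9.28 on untreated (-2.56). GDF15, a secreted stress cytokine, was at 11.73 on GEM_VPA and 13.60 on GEM, with 13.38 on VPA and 12.10 on untreated (-1.88). In all 3 the GEM and VPA levels were high and the GEM_VPA and untreated levels low. TP53I3, an oxidoreductase, was at -2.31, ABCA12, a lipid transporter, at -2.40, the kinase PLK3 at -1.16, the death receptor FAS at -1.11 and SESN1, sestrin 1, at -1.07. SPATA18 was the 1 gene above 0, at 0.07.

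Of 13 CDK inhibitor and brake genes CDKN1A and BTG1 (-1.14), an antiproliferative gene, were lower and 0 higher, and the median was -0.13. CDKN3, a phosphatase, was at 0.97. Among 32 apoptosis genes FAS and CASP4 (-1.18), an inflammatory caspase, were lower and 0 higher, with 26 below 0 and a median of -0.18. Of all 18377 genes 9693 were below 0, 1.13% lower and 2.28% higher. BCL2L1, which encodes BCL-XL, was at 0.36 and BCL2 at 0.42.

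Deacetylase genes and genes of deacetylase complexes differed little. None of 18 passed the limit in either direction and the median was 0.09, with HDAC1 at 0.30, HDAC2 at 0.58 and HDAC10 lowest at -0.90. Of 20 listed genes known to respond to HDAC inhibitors, 0 were higher and 5 lower on the GEM_VPA array, with a median of -0.08. The 5 were H2BC12, CDKN1A, H2BC21, KRT23, a keratin (-1.03), and ELF3, an epithelial transcription factor (-1.03). HPGD, a prostaglandin dehydrogenase, was highest at 0.99, just under the limit. In the pair without GEM (VPA against untreated) 4 of these 20 genes were at least 2-fold higher and 0 lower, with a median of 0.20. In the list of DNA methylation and Polycomb genes HELLS, a chromatin remodeller needed for DNA methylation, was the 1 of 17 past the limit (1.72). The Polycomb genes SCMH1 (1.48) and PCGF5 (1.07), outside the list and chosen after their values were seen, were also higher.

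Keratins, kallikreins and epithelial defence genes each had some members lower and 0 higher. Over all genes 1.13% were lower, 2.28% higher and 9693 of 18377 below 0, so 0 higher in lists this small is near that share. The level filter was reached by 12 of 16 keratins, 7 of 15 kallikreins and 11 of 22 S100 and epithelial defence genes. It was also reached by 4 of 11 CEACAM and 6 of 10 keratin-associated protein genes, and the others could not pass. Of 16 keratins 3 were lower and 0 higher, and 15 were below 0 (median -0.44). KRT7, keratin 7 of simple ducts, was at 8.93 on GEM_VPA and 11.14 on GEM, with 11.50 on VPA and 9.53 on untreated (-2.21). KRT20, keratin 20 of gut epithelium, was at -1.56. Of 15 kallikrein-related peptidases KLK5 (-2.43), KLK10 (-1.26) and KLK7 (-1.15) were lower and 0 higher, with 14 below 0 (median -0.30). Of 22 S100 and epithelial defence genes LCN2, LYZ, lysozyme (-1.72), S100A3 (-1.29) and SLPI, an inhibitor of leukocyte proteases (-1.11), were lower and 0 higher, with 20 below 0 (median -0.22). CEACAM1 and KRTAP3-1 were the 1 gene past the limit among 11 listed CEACAM genes and among 10 listed keratin-associated protein genes. KRTAP4-4, a keratin-associated protein gene outside the list and chosen after its value was seen, was also lower (-1.04).

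Mucins and trefoil factors (16 genes, median -0.12) and mesenchymal genes (20 genes, median 0.09) had 0 genes past the limit in either direction. Only 3 of these 16 and 13 of these 20 reached the level filter, and the others could not pass. CDH1, E-cadherin, was at -0.78, VIM, vimentin, at 0.36 and FN1, fibronectin, at -0.95. Of 26 junction and polarity genes 1 was higher, GRHL1, a transcription factor of epithelial barriers (1.03), and JUP, plakoglobin, was lowest at -0.96.

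Interferon-stimulated genes were lower in part. Of 36 measured 7 were lower and 0 higher, with 30 below 0 and a median of -0.29. Among all 18377 genes 1.13% were lower, 2.28% higher and 9693 below 0. IFI6, a mitochondrial inhibitor of cell death, was at 10.50 on GEM_VPA and 12.33 on GEM, with 12.99 on VPA and 10.31 on untreated (-1.83). PARP9 (-1.27) and DTX3L (-1.01), which form 1 complex and share a divergent promoter, IFI35 (-1.26), SAMD9 (-1.16) and the membrane proteins IFITM2 (-1.18) and IFITM1 (-1.12) were the others. PSMB9, an immunoproteasome subunit, was highest at 0.76. IFITM genes are near-identical in sequence and may share probes.

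The APOBEC3 cytidine deaminases, a family chosen after its values were seen, were all below 0. APOBEC3F was at -1.38, APOBEC3C at -1.32, APOBEC3H at -1.24 and APOBEC3B at -1.01, and the other 2 measured genes, APOBEC3D at -0.86 and APOBEC3G at -0.72, did not pass the limit. APOBEC3 genes are similar in sequence and may share probes. Of 19 HLA and antigen presentation genes 1 was higher, ULBP1, a stress ligand of the receptor NKG2D (1.25), and 0 were lower (median 0.02). Rows shared by HLA-DRB and HLA-DQB1 genes are outside this count. The 2 of them past the limit were lower, at a mean of -1.04, and shared rows under the limit were not listed. Of 37 NF-kB and cytokine genes PTAFR alone was past the limit.

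The start region of IFI6 (chr1:27672143-27672442, minus strand, RefSeq GRCh38.p14) is printed because 19 of the 29 interferon-stimulated promoters held the interferon response letters (GAAA, any 2 bases, GAAA), against 3.65% of all promoters and 2.41% of those of genes that reached the level filter. Its 3 matches are in capitals.
IFI6: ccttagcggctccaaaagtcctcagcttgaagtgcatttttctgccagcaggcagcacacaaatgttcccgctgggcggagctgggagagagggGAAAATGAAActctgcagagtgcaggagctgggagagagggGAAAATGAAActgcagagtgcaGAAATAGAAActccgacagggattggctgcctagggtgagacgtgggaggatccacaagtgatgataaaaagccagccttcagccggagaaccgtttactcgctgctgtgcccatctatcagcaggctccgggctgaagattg

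Few transporters of amino acids or glucose passed the limit. Of 23 amino acid transporters SLC7A11 and SLC7A2 were higher and 0 lower (median 0.06). Of 20 alpha-arrestins and glucose transporters 3 were lower, ARRDC4, SLC2A3, the high-affinity glucose transporter (-1.98), and SLC2A12 (-1.35), and 1 was higher, SLC2A13, a myo-inositol transporter (1.39), with a median of -0.07. SLC2A3 was at 10.19 on GEM_VPA and 12.16 on GEM, with 12.76 on VPA and 10.20 on untreated, and its VPA level was the highest. SLC2A3 and its paralogue SLC2A14 are near-identical, so their values may be shared.

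Genes of the amino acid response were divided. ASNS, asparagine synthetase, was at 10.30 on GEM_VPA and 9.14 on GEM, with 9.23 on VPA and 10.48 on untreated (1.16), and PHGDH, the first enzyme of serine synthesis, was at 1.28. The stress factors ATF3 (-1.10) and DDIT4 (-1.10) were lower. These were 2 higher and 2 lower genes of 24, with a median of 0.15. The start region of ASNS (chr7:97872359-97872658, minus strand, RefSeq GRCh38.p14) holds 1 match to the amino acid response letters TGATGNAA, in capitals, which is printed since ASNS is the textbook gene of this element.
ASNS: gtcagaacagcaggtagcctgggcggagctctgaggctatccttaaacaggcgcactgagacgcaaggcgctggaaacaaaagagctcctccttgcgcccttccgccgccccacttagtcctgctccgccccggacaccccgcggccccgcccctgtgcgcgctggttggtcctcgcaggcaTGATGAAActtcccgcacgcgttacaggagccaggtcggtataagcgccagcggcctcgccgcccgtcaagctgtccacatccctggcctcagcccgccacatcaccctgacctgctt

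The lists of lipid and drug metabolism held few genes past the limit. Of 28 cholesterol and fatty acid synthesis genes 24 were above 0 (median 0.19), but only INSIG1, the sterol-sensing retention protein (1.71), was higher, and TM7SF2, a sterol reductase (-1.26), was lower. Of 20 NRF2 targets SLC7A11 was higher and AKR1B10, an aldo-keto reductase (-1.30), lower. Of 25 ABC transporters ABCA5 was higher (1.12), and ABCA12, ABCC3, an exporter of organic anions in bile duct cells (-1.57), and ABCA7 (-1.16) were lower. The lists of fatty acid oxidation (17 genes, median -0.05) and of lysosome and autophagy (33, median -0.29) had none past the limit. In the latter 23 were below 0, against 9693 of all 18377 genes. Genes of these processes outside the lists did pass, chosen here after their values were seen. HADH (1.44) and ATG4C (1.05) were higher, and WDR45 (-1.15), FUCA1 (-1.09) and GRN (-1.01) lower.

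Signalling groups gave few genes past the limit. In the protein kinase A group 3 of 22 were higher and 0 lower (median 0.23), PRKAR2B, PDE3B, a phosphodiesterase (1.39), and PRKACB, a catalytic subunit (1.35). ANKRD1 (-1.67) and ACTA2, smooth muscle actin (-1.58), were the 2 of 26 YAP, TEAD and SRF targets past the limit, both lower. ANKRD1 was at 6.91 on GEM_VPA and 8.57 on GEM, with 10.32 on VPA and 7.07 on untreated. JUN (-1.07) and ATF3 were the 2 of 30 immediate-early genes past the limit, both lower. FGF2, fibroblast growth factor 2, was the 1 of 24 ERBB, MET and FGFR genes (1.18), and SPP1, osteopontin, the 1 of 27 integrin and matrix genes (1.85), both higher.

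Housekeeping groups differed little. Among 51 cytosolic ribosomal proteins (median 0.09), 45 mitochondrial ribosomal proteins (0.28), 41 respiratory chain genes (0.13), 28 proteasome genes (0.35) and 23 heat shock and chaperonin genes (0.25), 0 passed the limit. Members were more often above 0 than below in each, for example 37 of 51 cytosolic ribosomal proteins and 25 of 28 proteasome genes, against 47.2% of all genes.

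Markers of the labelled cell type were present. Of 12 biliary markers 11 reached the level filter. KRT7 and ANXA4, an annexin (-1.11), were lower and SPP1 was higher on the GEM_VPA array. Markers of other cell types were mostly under the level filter, which 3 of 11 hepatocyte, 4 of 12 leukocyte, 1 of 12 fibroblast and endothelium and 5 of 13 neuronal markers reached. Median levels of these 4 lists on the GEM_VPA array were 7.01, 6.98, 6.95 and 7.63, below the array median of 7.87. The markers past the limit were SERPINA1 (-1.15, hepatocyte), LYZ and CD68 (-1.28, leukocyte) and L1CAM (-1.28, neuronal), all lower. All 12 leukocyte markers were below 0, against 9693 of all 18377 genes, with a median of -0.16. LYZ is also secreted by epithelia.

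Promoter letters were counted in 27305 RefSeq start regions of 300 bases on both strands, and are a description of sequence only. Of the genes past the limit 341 higher and 155 lower ones had such a region, as had 9361 of the genes that reached the level filter and so could pass. The E2F letters were in 11.4% of the higher genes (39) and 2.58% of the lower genes (4), beside 5.47% of the genes that could pass and 3.33% of all regions. TTTGAA was in 21.4% of the higher and 10.3% of the lower genes, beside 9.18% of the genes that could pass and 15.4% of all regions. CCAAT was in 48.7% of the higher and 36.1% of the lower genes, beside 36.3% and 35.7%. Some start regions of histone genes are near-identical copies. These 3 sets of letters were more frequent in the higher genes than in both backgrounds.

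The interferon response letters were in 2.05% of the higher genes (7) and 9.03% of the lower genes (14), beside 2.41% of the genes that could pass and 3.65% of all regions. The AP-1 letters TGACTCA or TGAGTCA were in 2.93% of the higher and 8.39% of the lower genes, beside 2.97% and 4.92%. The E-box CACGTG was in 8.5% of the higher and 3.23% of the lower genes, beside 10.3% and 7.43%. The TATA letters TATAAA were in 7.62% of the higher and 10.3% of the lower genes, beside 5.59% and 12%, and the amino acid response letters in 3.23% and 3.87%, beside 1.59% and 3.67%. For both of these sets of letters the shares in the higher and the lower genes were above that of the genes that could pass. The sterol regulatory element and the p53 consensus had 0 matches among the genes past the limit and were in 0.0476% and 0.0293% of all regions. The shares rest on small counts, and no match says only that the letters are not in this window.

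The pair of arrays without GEM, VPA over untreated, shares no array with the comparison above and asks the same question in the absence of GEM. In that pair 464 genes passed the same rule (2.52%), 221 higher (1.2%) and 243 lower (1.32%). Of the 419 genes that were higher in GEM_VPA over GEM, 124 were at least 2-fold lower in VPA over untreated, 157 were between -1 and -0.5, 131 within 0.5 of 0, 5 between 0.5 and 1 and 2 at least 2-fold higher. Their median difference was -0.74 in VPA over untreated. Of the 207 lower genes, 84 were at 1 or above, of which 82 passed the rule as higher, 93 lay between 0.5 and 1, 29 within 0.5, 1 between -1 and -0.5 and 0 at -1 or below, with a median of 0.92. Across 18377 genes the 2 differences correlated at -0.654 (Pearson) and -0.582 (Spearman), and across the 11638 genes at level at -0.691 and -0.672. Genes are not independent replicates, and the values come from 4 arrays normalized together. The opposite signs restate the closeness of GEM_VPA to untreated and of GEM to VPA, and are not a separate result.

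**Figure D5:**
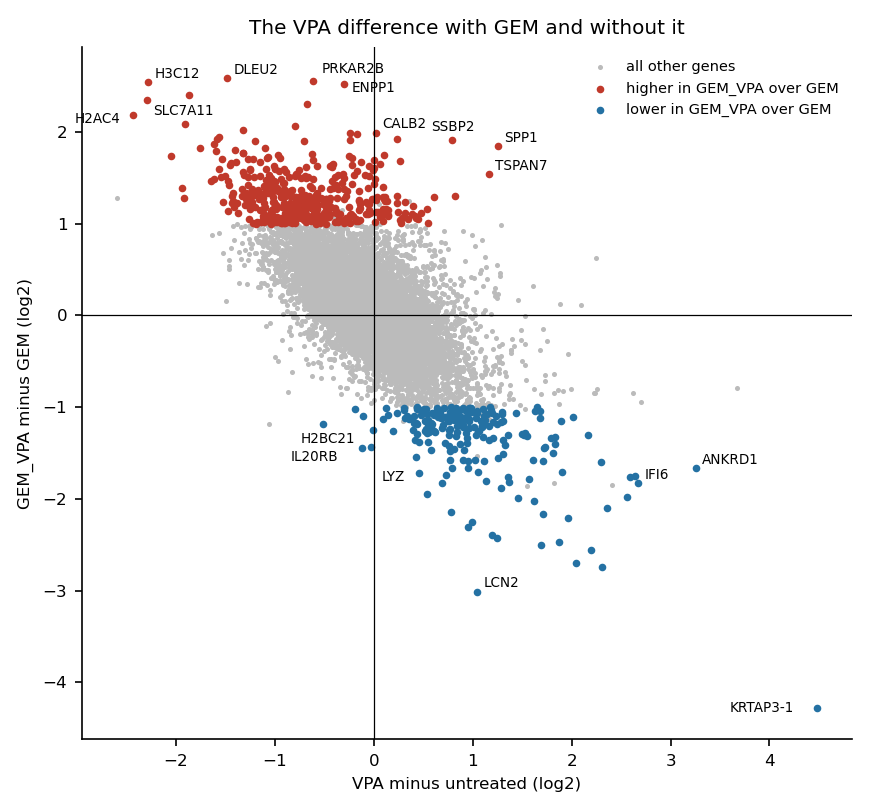
The log2 difference with VPA in the presence of GEM (GEM_VPA minus GEM) is plotted against the difference in its absence (VPA minus untreated), with 1 point per gene. Genes at least 2-fold higher in GEM_VPA over GEM are red and lower ones blue, and 368 of the 419 red points lie left of 0 and 201 of the 207 blue points right of it, with SPP1 and TSPAN7 at the upper right among the exceptions.

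Of 60 gene lists, which share members, 53 had medians of opposite sign in the pairs. Origin licensing genes had a median of 1.20 with GEM and -1.03 without, homologous recombination genes 1.03 and -0.69, mitotic kinases 0.96 and -0.76, histones 0.63 and -0.70, p53 targets -0.77 and 0.43, keratins -0.44 and 0.40, and interferon-stimulated genes -0.29 and 0.26. In the other 7 lists both medians had 1 sign, for example HLA and antigen presentation (0.02 with GEM and 0.48 without), mesenchymal genes (0.09 and 0.09), CDK inhibitors (-0.13 and -0.03), gemcitabine handling (-0.03 and -0.05) and non-coding host RNAs (-0.29 and -0.28). The median levels of the 419 higher genes were 10.20 on GEM_VPA, 8.84 on GEM, 9.31 on VPA and 10.00 on untreated. Those of the 207 lower genes were 8.80 on GEM_VPA, 10.07 on GEM, 9.93 on VPA and 8.97 on untreated.

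SPP1 and TSPAN7 were the 2 genes past the limit in the same direction in both pairs. SPP1, a secreted phosphoprotein of bile duct cells, was at 9.13 on GEM_VPA and 7.28 on GEM, with 8.91 on VPA and 7.65 on untreated, with differences of 1.85 with GEM and 1.26 without. TSPAN7, a tetraspanin, was at 9.40 on GEM_VPA and 7.86 on GEM, with 9.73 on VPA and 8.56 on untreated, with 1.54 and 1.16. In both genes the GEM array was the lowest and the 2 arrays with VPA were the highest. When all 4 levels of a gene had to be at or above their array medians, 0 genes passed in the same direction in both pairs, since the GEM level of each of these genes lies below the GEM median of 7.91.

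Another 5 higher genes had a difference of at least 0.5 in VPA over untreated as well. They were SSBP2 (1.91 and 0.79), SH3BGRL2 (1.30 and 0.82), RGS9, a regulator of G protein signalling (1.29 and 0.61), CRYM, a thyroid hormone binder (1.16 and 0.53), and LTBP1, which binds latent TGF-beta (1.01 and 0.55). Genes named in this and the next paragraph that are outside the fixed rule were chosen after their values were seen.

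Some genes past the limit with GEM lay within 0.5 of 0 without it. CALB2 was at 9.43 on GEM_VPA and 7.44 on GEM, with 8.73 on VPA and 8.71 on untreated, with 1.99 in GEM_VPA over GEM and 0.02 in VPA over untreated. CPM was at 9.46 on GEM_VPA and 7.54 on GEM, with 8.82 on VPA and 8.58 on untreated, with 1.92 and 0.23. Among the lower genes H2BC21 had -1.43 and -0.02, LYZ -1.72 and 0.45, and IL20RB, a cytokine receptor subunit, -1.45 and -0.12. For H2BC21 the GEM level stood apart from the other 3, while for CALB2 and CPM the VPA and untreated levels lay between those of GEM_VPA and GEM.

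The GEM_VPA array was also set against the remaining arrays, with arrays shared between the comparisons. GEM_VPA over untreated had 17 genes past the limit (0.0925%), GEM_VPA over VPA 367 (2.0%) and GEM over untreated 521 (2.84%). For CDKN1A the difference was -1.99 in GEM_VPA over GEM, -1.58 in GEM_VPA over VPA, -0.12 in GEM_VPA over untreated and 1.87 in GEM over untreated. For MCM6 the same 4 differences were 1.77, 1.24, -0.07 and -1.85. For SPP1 they were 1.85, 0.22, 1.48 and -0.37. CDKN1A and MCM6 thus lay close to their untreated levels on the GEM_VPA array and SPP1 did not.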

How the data were processed

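RNA of HuCCT1 cells was measured on 4 Affymetrix Human Gene 1.0 ST arrays, 1 for each condition. The authors deposited log2 intensities. Normalization was in GeneSpring GX 11.5 per the labels' description of the design, and the submitters' processing notes name RMA, which as a rule brings arrays to 1 distribution and compresses low values, so array-wide shifts may be hidden. The deposited columns did not share 1 distribution exactly, with medians from 7.87 to 7.92. Of 28869 rows, 19310 had 1 gene symbol in the platform annotation, 1752 several and 7807 none, and the mean of a gene's 1-symbol rows was its level. Entrez IDs matched RefSeq for 99.84% of those rows and 0 symbols changed. Detection calls and scan batches were not used here.

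Differences of log2 values were computed for the pairs of arrays, with 2 and 0.5 as limits of the ratio, which are the study's own, and the higher level at or above its array's median. Nothing was tested, since no condition has a replicate. Genes named are the 30 largest increases and 30 largest decreases past the limit, every list member past the limit, the highest and lowest member of each of 60 gene lists, and 14 further genes of drug handling, cell cycle and cell identity (among them DCK, CDA, CDH1, VIM and MYC). The text gives only some of these. The comparison, lists and named genes were chosen with earlier results of these data known. Lists share members, and 149 listed genes had no 1-symbol row here. Promoter and microRNA sequences came from RefSeq (GRCh38.p14) by symbol. Alternatives covered normalization, level filter, fold limit, choice of row and summary of lists. The counting step was checked on simulated data. Software was Python 3.11.15 with numpy 2.4.6, pandas 2.3.3 and matplotlib 3.10.9.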

Additional observations from a re-analysis of the deposited data

Results flagged for a closer look

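For many genes the difference with VPA had opposite signs with GEM and without it. Of the 419 higher genes 368 were below 0 in VPA over untreated and 51 above, and of the 207 lower genes 201 were above 0 and 6 below. There were 124 genes at least 2-fold higher in GEM_VPA over GEM and at least 2-fold lower in VPA over untreated, and 82 genes lower in GEM_VPA over GEM and higher in VPA over untreated. With 1 array per condition these differences between the pairs were not tested. Correlations between arrays were 0.9962 for GEM_VPA with untreated and 0.9955 for GEM with VPA. By arithmetic the 2 VPA differences of a gene sum to GEM_VPA minus untreated, less GEM minus VPA. The spreads of the latter 2 differences, as robust SDs, were 0.147 and 0.158. The opposite signs and these correlations are thus not separate results.

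The 2 listed gene groups with medians above 1 in GEM_VPA over GEM had medians below 0 in VPA over untreated. Origin licensing and helicase genes had a median of 1.20 in GEM_VPA over GEM and -1.03 in VPA over untreated, where all 27 were below 0. Homologous recombination and Fanconi anaemia genes had medians of 1.03 and -0.69. These differences were not tested either.

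Rows that carry no gene symbol or more than 1 symbol are outside the counts of genes. Among them 139 rows were at least 2-fold different between GEM_VPA and GEM, 48 higher and 91 lower. The means below are over rows past the limit only. The row set of the keratin-associated proteins KRTAP2-1 to KRTAP2-4 (6 rows) stood at a mean of 11.94 on GEM_VPA, 13.72 on GEM, 13.96 on VPA and 11.80 on untreated. Rows shared by HLA-DRB and HLA-DQB1 genes stood at 9.51, 10.55, 11.63 and 8.64 in the same order of arrays, so VPA was the highest there.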

How the results depend on the processing

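The counts of 419 higher and 207 lower genes became 1384 and 764 at a 1.5-fold limit and 67 and 38 at a 3-fold limit. Under 6 other settings of normalization, level filter and choice of row they stayed between 327 and 495 and between 163 and 241. Higher genes were 66.9% of those past the limit, 61.5% after quantile normalizing the columns again and 73.6% after centring each array on its median, which kept 578 and 597 of the 626 genes past the limit. Of the 2 genes that passed in the same direction in both VPA pairs, 0 passed when all 4 levels had to be at or above their array medians.

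Of 235 named genes, 0 changed sign under the 3 settings tried for single genes and 19 came under the limit in 1 of them, from 0.91 for HNRNPR to 0.998 for KIF18A in the 16 lost by quantile normalizing again, and KRT23, ELF3 and DTX3L at -0.98, -0.98 and -0.97 with centring. Among these 235, 86 moved by more than 0.0609 (the probe spread given below) when quantile normalized again. Of 60 list medians, 7 changed sign in some setting. By the mean, HLA and antigen presentation was at -0.0753, ERBB, MET and FGFR signalling at 0.0625, non-coding host RNAs at 0.0455 and fatty acid oxidation at 0.053. Over members at level alone, fatty acid oxidation was at 0.12, hepatocyte markers at 0.0035 and ERBB, MET and FGFR signalling at 0.0208. With centring, gemcitabine handling was at 0.0226, ERBB, MET and FGFR signalling at 0.0032 and fibroblast and endothelium markers at 0.0105. By more than 0.0609, 32 medians moved under the mean, 17 over members at level alone and 13 after quantile normalizing again, for example kallikreins at -0.57, S100 and epithelial defence at -0.52 and alpha-arrestins and glucose transporters at -0.38 by the mean, against -0.30, -0.22 and -0.07 by the median. The causes were not tested.

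Of 685 genes with more than 1 row, 8 had rows over 1 apart, and the median SD of the rows' differences was 0.0609, a measure of probe spread and not of culture or array spread. No paired analysis was possible because each condition has 1 array.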

Other observations

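Families chosen after their values were seen added the following. Since the choice followed the values, their counts are a description only. Over all genes 2.28% were higher, 1.13% lower and 47.2% above 0. Of 48 measured centriole and centrosome genes 12 were at least 2-fold higher in GEM_VPA over GEM and 0 lower, with 44 above 0 and a median of 0.67. CEP128, of the subdistal appendages, stood at 9.58 on GEM_VPA, 7.95 on GEM, 8.56 on VPA and 9.14 on untreated (1.63). CPAP (1.24) and SASS6 (1.07), which build the centriole, HAUS6 (1.39) of the augmin complex and ALMS1 (1.38) also passed the limit. Of 8 HMG chromatin proteins all were above 0, and HMGN3 (1.38), HMGN5 (1.28) and HMGB2 (1.24) passed the limit. SKA1 (1.59) and SKA2 (1.01) of the 3 SKA genes, which couple kinetochores to microtubules, passed as well. The 2 rows of SKA2 gave 0.74 and 1.29, so 1 of them lay under the limit.

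Among the lower genes MXD1 (-1.34) and MXD4 (-1.06), which oppose MYC on DNA, were 2 of 8 MAX network genes past the limit, and YPEL5 (-1.12) and YPEL3 (-1.11) 2 of 5 YPEL genes. Both measured transcobalamins, which carry vitamin B12, were lower. TCN1 stood at 7.21 on GEM_VPA, 8.96 on GEM, 9.73 on VPA and 7.09 on untreated (-1.75), and TCN2 at 7.87, 9.18, 9.47 and 7.95 in the same order (-1.31). Of 192 small nucleolar and Cajal body RNA genes 4 were lower and 0 higher, against 1.13% and 2.28% of all genes. In this family 133 were below 0, against 9693 of all 18377 genes, and the median was -0.11. Members with levels under the array medians, among them the SNORD115 genes, could not pass the rule. SNORD41 (-1.54) and SCARNA9 (-1.48) were the lowest of these. RIGI, a sensor of viral RNA (-1.15), and SLFN5, an interferon-induced gene (-1.51), lay outside the lists and were also lower.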
